A study of Mus musculus with 12 samples.

Results

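The immune cells of 2 tumours were compared, one grown from clone EM1 and one from clone EM2, each derived from a single cell of 4T1, a mouse mammary carcinoma line used as a model of triple-negative breast cancer. The cells were those of the 2 libraries made from the CD45 fraction of these tumours: 18651 of the 115612 cells in the 12 libraries of the series, 9506 from EM1 and 9145 from EM2. After the removal of cells called as doublets, 9303 EM1 cells and 8943 EM2 cells remained. The series holds 5 such clones, chosen along the range from epithelial to mesenchymal states, and the parental line, with 1 tumour each in the mammary fat pad of female BALB/c mice aged 9 to 11 weeks. Neither tumour carried a further treatment or engineered allele in the labels. Tumours were digested with collagenase A and hyaluronidase, and CD45 cells were taken with magnetic beads. Each clone is therefore 1 tumour of 1 mouse, and differences between clones, mice and tumours cannot be told apart. No test between the clones was possible. The intervals given are exact 95% intervals (Poisson for counts, Clopper-Pearson for shares) and cover counting error only.

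CD45 is a surface phosphatase carried by nearly all white blood cells. In mammary tumours these are chiefly macrophages and monocytes, granulocytes, T cells and B cells. Cytotoxic CD8 T cells kill with perforin and granzymes. Each T cell clone carries a single rearranged T cell receptor beta chain, whose V gene segment is passed to all its daughters. Interferon-gamma, released by T and NK cells, raises the transcription of guanylate-binding proteins, immunity-related GTPases and antigen presentation genes.

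The 2 CD45 libraries held 30287705 unique molecular identifiers (UMIs, counted molecules) in EM1 and 34987894 in EM2, over 18574 genes. The median was 1663 UMIs per cell in EM1 and 2942 in EM2, while within a class the medians lay close, with 5452 and 5117 in macrophages, 739 and 690 in granulocytes and 1052 and 978.5 in T cells. The 2 libraries had 1186 droplet barcodes in common (12.5% of EM1 and 12.97% of EM2 cells), against 75 to 161 that either had in common with each of the other 4 CD45 libraries, and are taken as captured together. Each had 818 to 1332 in common with the total libraries of these 2 tumours, which are therefore taken as part of the same capture. Among those shared droplets, the EM1 and EM2 cell had the same class in 312 (26.3%), against 26.0% if the classes were independent. The authors' class names were set against marker genes. The 8 macrophage markers summed to 15990.3 CPM (the count per 1000000 UMIs of the summed class) in EM1 and 15354 CPM in EM2 macrophages, and to 847 and 996 CPM in T cells. The 8 T cell markers summed to 5391 and 5315 CPM in T cells and to 22.7 and 19.6 CPM in macrophages. The 6 granulocyte markers summed to 191401 and 206015 CPM in granulocytes, and to 1170.1 and 1058 CPM in T cells. The class called Other Myeloid had macrophage markers at 15549.5 and 14543 CPM, close to the macrophages. Other classes were less clear-cut. Dendritic cells had macrophage markers at 7585 and 4137 CPM beside dendritic markers at 3296 and 4269 CPM. The class called T/Myeloid Hybrid had granulocyte markers at 30109 and 27332 CPM, macrophage markers at 5065 and 2153 CPM and T cell markers at 1843 and 2515 CPM. NK cells had NK markers at 2974 and 2639 CPM and T cell markers at 1442 and 1561 CPM. The NK class of the authors' finer annotation had markers of plasmacytoid dendritic cells at 4661 and 5663 CPM, above its NK markers at 1475 and 984 CPM, and is not described here.

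The EM1 tumour held fewer macrophages and more T cells among its immune cells than the EM2 tumour. Macrophages made up 35.6% (34.6 to 36.6) of EM1 and 50.8% (49.8 to 51.8) of EM2 cells, a difference of -15.2 percentage points (-16.6 to -13.8). T cells made up 32.6% (31.6 to 33.5) and 20.5% (19.6 to 21.3), 12.1 points more in EM1. Both values lay above those of the other 4 CD45 libraries, in which T cells were between 9.16% and 17.0%. Granulocytes were 15.1% of EM1 and 11.9% of EM2 cells, and 24.2% to 50.7% in the other 4 libraries. EM1 and EM2 are taken as captured together and apart from those 4. For T cells and granulocytes alike, a gap to the other 4 libraries cannot be told apart from the capture. The same limit holds for every gene value set against those libraries below. B lineage cells were 7.66% and 5.60%, and dendritic cells, which carry antigen to T cells, 2.20% and 3.71%. The intervals of the difference included 0 for NK cells (1.42% and 1.48%), for Other Myeloid cells (4.87% and 5.40%) and for the T/Myeloid Hybrid class (0.613% and 0.626%).

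The libraries of total tumour cells from the same 2 tumours, a second measurement of each tumour and not a second tumour, gave the same order. Of their immune cells, macrophages were 33.8% in EM1 and 55.0% in EM2. T and NK cells together were 41.8% and 24.01%. Granulocytes were 15.2% and 10.7%, so macrophages, T cells and granulocytes kept their direction in these libraries. They are taken here as not selected on CD45, although the protocol also names a CD45- fraction. The B cell difference was not seen there: B cells were 7.73% and 7.46%, with a difference of 0.279 points (-0.814 to 1.40).

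Within the T cells, the 2 tumours differed in composition. Gzmb+ Cd8+ T cells, the cytotoxic effector class, were 22.7% (21.2 to 24.2) of EM1 T cells and 13.8% (12.2 to 15.4) of EM2 T cells. As a share of all immune cells they were 7.40% and 2.82%, 4.58 points apart. Cells named Cd44- Cd4+ T by the authors, which carried the naive T cell genes, took nearly the same share of T cells in both, at 47.4% and 47.3%. Their name is not borne out by markers: 2 CD8 markers summed to 430 CPM in EM1 and 340 CPM in EM2, and 2 CD4 markers to 371 and 364 CPM. In Cd44+ Cd4+ cells the CD8 sums were 71.4 and 132 CPM and the CD4 sums 1555 and 1406 CPM. Foxp3+ Cd4+ regulatory T cells were 211 cells in each library, which made 6.97% (6.08 to 7.93) of EM1 and 11.5% (10.1 to 13.1) of EM2 T cells. Among all immune cells they were nearly level, with these 211 cells out of 9303 in EM1 and 8943 in EM2. Plasma cells, which secrete antibody, were 107 cells (1.15%) in EM1 and 19 cells (0.212%) in EM2. The plot of class shares sets these values beside the other tumours.

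Among the T cell receptor beta V genes counted, 1 gave most of the UMIs in the Gzmb+ Cd8+ T cells of EM1. The count table holds 20 Trbv genes, and the use of a V gene outside them cannot be seen. Trbv14 gave 2299 of the 2917 UMIs of these genes in EM1 (78.8%, 77.3 to 80.3) and 52 of 524 in EM2 (9.92%, 7.50 to 12.8). The next gene in EM1, Trbv19, gave 3.29%, whereas in EM2 Trbv19 led with 32.3% and 7 genes each passed 5%. A Trbv14 UMI was found in 333 of 688 EM1 cells (48.4%, 44.6 to 52.2) and in 10 of 252 EM2 cells (3.97%, 1.92 to 7.18). Of these, 285 EM1 cells and 8 EM2 cells had 3 or more. The molecules were thus spread over many EM1 cells and did not come from a few. Genes differed in UMIs per cell, with 70 UMIs of Trbv12-2 in 63 EM1 cells, so shares of UMIs are not shares of cells.

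The high Trbv14 share of EM1 was found in the effector and the dividing T cells. In the dividing Mki67+ T cells, Trbv14 was 57.0% of Trbv UMIs in EM1 (38 of 140 cells) and 5.81% in EM2 (4 of 88 cells), where Trbv19 led with 31.3%. In Cd44- Cd4+ T cells Trbv14 was 9.95% in EM1 and 8.35% in EM2, with overlapping intervals (8.65 to 11.4 and 6.65 to 10.3). In Cd44+ Cd4+ T cells it was 4.01% and 7.37%, and in Lef1+ Cd8+ T cells, which carry the naive factor Lef1, 11.8% and 5.41%. Regulatory T cells lay between, at 19.7% and 11.0%. No other CD45 library with at least 20 such cells had so high a Trbv14 share of Gzmb+ Cd8+ cells: EM3 was led by Trbv14 at 50.6%, E by Trbv13-3 at 40.6% and M by Trbv19 at 41.5% of 123 UMIs. By cells EM3 was less one-sided, with a Trbv14 UMI in 70 and a Trbv29 UMI in 65 of 311 cells. In the libraries of total tumour cells, Trbv14 was 53.2% (51.6 to 54.8) of Trbv UMIs of T and NK cells in EM1 and 11.8% (10.4 to 13.4) in EM2. Cells that do not make the receptor gave a background: a Trbv14 UMI was seen in 1.90% of EM1 and 0.220% of EM2 macrophages, and in 1.36% and 0.0938% of granulocytes. These shares differ between the tumours in the same direction, at a level far under the 48.4% of the Gzmb+ Cd8+ cells. A V gene does not identify a clone, and the joined receptor sequences were not analysed here.

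**Figure D1:**
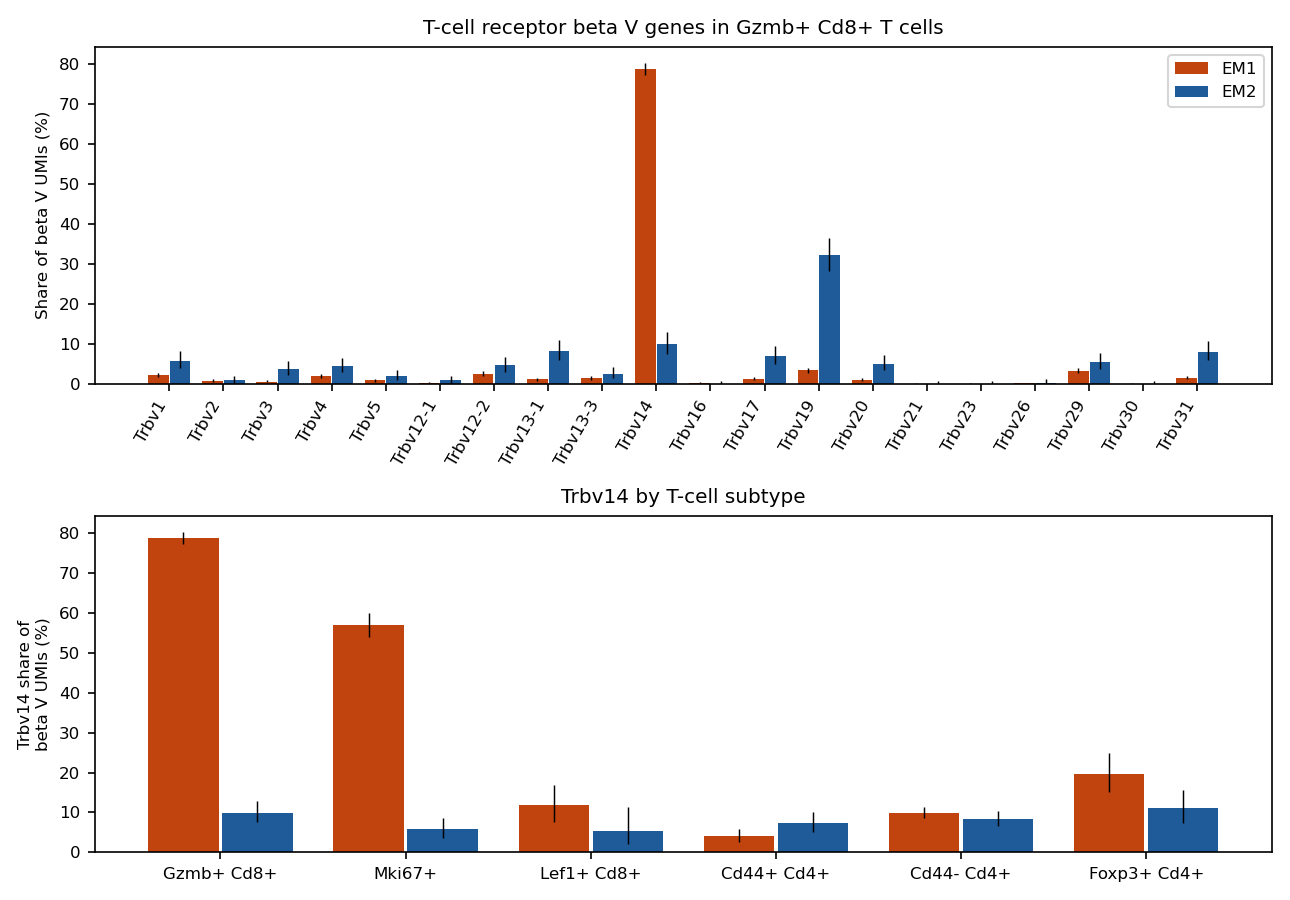
Top, share of each of 20 Trbv genes in the Trbv UMIs of Gzmb+ Cd8+ T cells, EM1 and EM2 CD45 libraries; bottom, share of Trbv14 in 6 T cell subtypes. Error bars are exact 95% intervals. Trbv14 is at 78.8% in EM1 and 9.92% in EM2 Gzmb+ Cd8+ cells, and at 57.0% and 5.81% in Mki67+ T cells.

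Across all genes, 77 of 5264 measured in Gzmb+ Cd8+ T cells differed by 2-fold or more (1.46%). Of these, 51 (0.969%) were higher in EM1 and 26 (0.494%) in EM2, and 68 of the 77 still did so without the 2 cells that held most of a gene's UMIs in each library. Counted anew over all genes without those cells, 99 were higher in EM1 and 15 in EM2. Taking 2 cells from each library lowers the side with fewer cells more, and this class had 688 EM1 and 252 EM2 cells. That recount therefore leans to EM1 by construction. A gene counted as measured with at least 50 CPM on one side and 30 UMIs over both, and folds were taken as log2 of the ratio of CPM + 10. Where 2 CPM values are set against each other, the first is EM1 and the second EM2. Trbv14 stood first, at 2505 (2404 to 2609.9) CPM in EM1 and 164 (123 to 215) CPM in EM2 (log2 3.85, and 4.39 without the 2 highest cells). Klre1, an NK cell receptor, was at 118 (96.5 to 142) CPM in EM1 and 22.1 (8.89 to 45.6) CPM in EM2 (log2 1.99, 90 and 5 cells). Tcrg-C2, a constant gene of the gamma chain of the T cell receptor, was at 126 (104 to 152) CPM in EM1 and 22.1 (8.89 to 45.6) CPM in EM2 (log2 2.09). Xcl1, a chemokine that draws cross-presenting dendritic cells, was at 131 CPM in EM1 and 37.9 CPM in EM2 (log2 1.56). Gzma, a granzyme, was at 207 CPM in EM1 and 91.6 CPM in EM2 (log2 1.09). The 5 NK cell markers summed to 611 CPM in EM1 and 411 CPM in EM2 in this class, with Klre1, Prf1 and Eomes higher in EM1 and the NK receptor genes Ncr1 and Klra8 at 0 in both. In the NK class itself 1 of the 5 markers was also at 0 in each library, so a marker at 0 does not show that NK cells were absent. The part of NK cells in these values was not tested.

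Granzymes of the Gzmb cluster were uneven. Gzmf was at 409 (368 to 452) CPM in EM1 and 107 (74.4 to 150.1) CPM in EM2 (log2 1.83), and Gzme at 195 CPM in EM1 and 53.7 CPM in EM2 (log2 1.69), carried by few cells, with Gzmf UMIs in 51 and 6. These granzymes have similar sequences, and how the counting divides their reads was not tested. Gzmb itself was level at 837 CPM in EM1 and 967 CPM in EM2. Prf1, the pore-forming perforin, was at 269 CPM in EM1 and 174 CPM in EM2 (log2 0.60), short of 2-fold. The chemokine Ccl1 (log2 3.02) owed 90 of its 112 EM1 UMIs to a single cell. The cytotoxic effector list does not hold all the granzymes named above. Of its 14 measured genes 2 were at least 2-fold higher in EM1 and none in EM2, with a median log2 of 0.026 against 0.011 over all measured genes.

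Of the inhibitory receptors, which restrain T cells after long stimulation, none of 8 measured passed 2-fold, with a median log2 of 0.018. Pdcd1, the gene of PD-1, was at 3098 CPM in EM1 and 3538 CPM in EM2. Lag3 was at 1051 against 1036 CPM, and Havcr2, the gene of TIM-3, at 291 against 287 CPM. Ifng, the gene of interferon-gamma, was at 86.1 against 72.7 CPM with overlapping intervals. Higher in EM2 were the V genes Trbv19, at 105 (84.7 to 128) CPM in EM1 and 534 (456 to 621) CPM in EM2 (log2 -2.25), and Trbv13-1, at 32.7 against 136 CPM. Rab11fip4, at 16.3 against 69.5 CPM, and Thbs1, at 75.2 against 246 CPM, were also higher in EM2, and the macrophages gave Thbs1 the same direction.

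Within the EM1 Gzmb+ Cd8+ cells, those with Trbv14 differed from those without. The 285 cells with 3 or more Trbv14 UMIs had a median of 1380 UMIs in all, and the 355 cells without any had 1008. The 48 cells with 1 or 2 Trbv14 UMIs were in neither group. Gzmf was at 773 CPM in the first and 46.7 CPM in the second group, beside 107 CPM in EM2. Klre1 was at 155 and 81.7 CPM, beside 22.1 CPM in EM2, and Tcrg-C2 at 177 and 81.7 CPM, beside 22.1 CPM. Xcl1 was nearly level between the groups, at 137 and 126 CPM, and above the 37.9 CPM of EM2 in both. Trbv19 was at 6.82 and 210 CPM, a contrast largely set by the split itself, since each T cell clone carries a single beta chain. The high Gzmf level was thus held by the Trbv14 cells as a summed group, while Klre1, Tcrg-C2 and Xcl1 were above the EM2 level also in EM1 cells without Trbv14. Few EM1 cells of the class carried Gzmf, so its level does not describe the Trbv14 cells in general. Cells of 1 tumour are not replicates, and these values carry no test.

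Dividing T cells of the 2 tumours were of different make-up. Of 5233 genes measured in Mki67+ T cells, 98 passed 2-fold (1.87%), 44 of them higher in EM1 (0.841%) and 54 in EM2 (1.03%). Without each gene's 2 highest cells 60 were higher in EM1 and 35 in EM2. That recount takes 2 cells from 140 in EM1 and 2 from 88 in EM2, so it leans to EM1 by construction. The regulatory T cell list stood out by direction: all 11 measured members leaned to EM2, with a median log2 of -0.82 against -0.0084 over all genes, and 4 passed 2-fold. Foxp3, the factor that defines regulatory T cells, was at 198 (163 to 238) CPM in EM1 and 554 (481 to 634) CPM in EM2 (log2 -1.44), with UMIs in 24 of 140 and 31 of 88 cells. Ctla4, an inhibitory receptor, was at 638 against 1608 CPM, the chemokine receptor Ccr8 at 109.6 against 326 CPM and Klrg1 at 61.9 against 225 CPM. On the other side, Eomes, a factor of cytotoxic cells, was at 214 CPM in EM1 and 60.9 CPM in EM2 (log2 1.66) and Cd8a at 429.6 against 275 CPM. Cell division genes were level, with none of 22 past 2-fold and a median log2 of 0.10. The values describe a dividing pool with more Cd8a and Trbv14 in EM1 and more Foxp3 in EM2.

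In T cells as a whole 20 of 5130 genes passed 2-fold (0.39%), 13 higher in EM1 (0.253%) and 7 in EM2 (0.136%). In T and NK cells of the total libraries 40 of 5322 genes passed, 13 higher in EM1 and 27 in EM2. The regulatory T list again leaned to EM2, with 10 of 11 measured members lower in EM1 and a median log2 of -0.60. Ccr8 was at 118 CPM in EM1 and 256 CPM in EM2 and Klrg1 at 57.8 against 134 CPM, and the total tumour libraries gave 102 and 192 CPM for Ccr8 in T and NK cells. In the Foxp3+ Cd4+ cells taken alone none of the 13 members passed 2-fold, with a median log2 of -0.17, and Foxp3 was at 2328 against 2293 CPM. In that class 83 of 4196 genes passed 2-fold (1.98%), 46 higher in EM1 (1.1%) and 37 in EM2 (0.882%), or 33 and 38 without each gene's 2 highest cells. Tnfsf8, the gene of the CD30 ligand, was at 23.05 (8.46 to 50.2) CPM in EM1 and 184 (137 to 243) CPM in EM2 from 3 and 15 cells. Plac8 was at 61.5 against 276 CPM, and Fgl2, which makes a secreted suppressor of T cells, at 211 against 523 CPM. Ccr3, a receptor for eotaxins, was higher in EM1 at 146 against 47.9 CPM.

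In activated Cd44+ Cd4+ T cells 1 of the 6 T helper genes measured, Il13, passed 2-fold, and it was higher in EM1. Of 5100 measured genes 94 passed 2-fold (1.84%), 60 higher in EM1 (1.18%) and 34 in EM2 (0.667%). Without each gene's 2 highest cells the counts were 77 and 21, but with 429 EM1 and 310 EM2 cells that recount leans to EM1. Il13, the gene of interleukin-13, was at 198 (159.6 to 242) CPM in EM1 and 9.46 (1.95 to 27.6) CPM in EM2, from 18 and 3 cells (log2 3.42, and 3.03 without the 2 highest cells). The other CD45 libraries ranged from 38.2 to 1067 CPM, so the EM1 value lay within their range and the EM2 value below it. Areg, an epidermal growth factor family ligand made by type 2 and tissue-repair T cells, was at 107 against 18.9 CPM, from 16 and 5 cells. The UMIs of other cytokine genes lay mostly in single cells. Ifng had 145 of its 185 EM1 UMIs in 1 cell, Ccl3 130 of 143 and Ccl4 71 of 88. Without the 2 highest cells the log2 ratios of these 3 genes were 1.68, -0.44 and -0.046. Ifng thus stayed past 2-fold, and Ccl3 and Ccl4 did not. Of the 6 T helper genes measured 3 leaned to EM2.

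Genes higher in EM2 Cd44+ Cd4+ cells included Penk, which encodes the opioid precursor proenkephalin, at 529.5 (466 to 599) CPM in EM1 and 1507 (1375 to 1648) CPM in EM2 (log2 -1.49, 25 and 33 cells). Plk2, a stress-responsive kinase, was at 50.4 against 268 CPM. Itgae, the gene of the CD103 integrin of tissue-resident T cells, was at 18.9 against 75.6 CPM, and Itgb8, an integrin that activates TGF-beta, at 16.8 against 81.9 CPM. Macrophage genes stood beside these: of 8 measured genes of the Arg1-side macrophage list 4 were at least 2-fold higher in EM2 and all 8 leaned that way (median log2 -0.86). The whole list of 8 macrophage markers summed to 998 CPM in EM1 and 1150.4 CPM in EM2 in this class. The part of macrophage RNA in these values was not tested.

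Cd44- Cd4+ T cells, the T cell subtype with the most cells, had 17 of 5068 genes past 2-fold (0.335%), 11 higher in EM1 (0.217%) and 6 in EM2 (0.118%). None of 12 naive and memory T genes passed it, and Ccr7, the lymph node homing receptor, was at 3195 CPM in EM1 and 3285 CPM in EM2. Heat-shock genes led after the immunoglobulin genes. Hspa1b was at 394 (362 to 427) CPM in EM1 and 67.5 (50.8 to 87.8) CPM in EM2, with UMIs in 100 of 1436 and 24 of 865 cells (log2 2.38). Hspa1a was at 332 against 57.6 CPM (log2 2.34), and at 1178 CPM in the EM3 library. The pair has near-identical coding sequences, so reads may be shared between them. Both were also higher in EM1 Cd44+ Cd4+ cells, Hspa1a at 153 against 31.5 CPM and Hspa1b at 204 against 66.2 CPM. These genes are induced by warm digestion as well as by stress in the tissue. They were the 2 of 15 measured genes of the dissociation stress list past 2-fold in the Cd44- class, and the list's median log2 was 0.0078.

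Lef1+ Cd8+ T cells numbered 103 and 80, and 97 of 2471 genes passed 2-fold (3.93%), 45 higher in EM1 (1.82%) and 52 in EM2 (2.1%), the highest shares among the T cell subtypes compared. Without each gene's 2 highest cells the counts were 56 and 33, again in a recount that leans to the side with more cells. None of 11 naive and memory T genes was among the 97. Gzma had the highest ratio, at 541 CPM in EM1 and 41.5 CPM in EM2, with 42 of 81 EM1 UMIs in 1 cell. The EM2 side was led by macrophage genes, with Spp1 at 46.8 against 274 CPM and Lyz2 at 328 against 1228 CPM. The 8 macrophage markers summed to 983 CPM in EM1 and 1718 CPM in EM2, and their part in these values was not tested.

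The antibody-making cells of EM1 were more numerous, and 1 class led most of those with enough heavy-chain UMIs to name a leader. The EM1 CD45 library held 123593 UMIs of Ighg1, the constant gene of IgG1, and EM2 12443; the E library held 38404 and the other 3 between 7 and 10. Plasma cells gave 86.2% of these in EM1 and 96.4% in EM2. The heavy-chain genes counted were Ighm, Ighd, Ighg1, Ighg2b, Ighg2c, Ighg3, Igha and Ighe. Ighg2a was not counted, so cells that use it cannot be seen here. Among these heavy-chain UMIs of plasma cells Ighg1 was 92.7% in EM1 and 67.7% in EM2, and Ighm, the IgM gene, 0.679% and 32.2%. A single EM2 cell held 3267 of the 5709 Ighm UMIs. Of 107 EM1 plasma cells 61 were led by Ighg1, 3 by Ighg3, 1 by Igha and 1 by Ighm, and 41 had too few heavy-chain UMIs (under 100) to name a leader. Of 19 EM2 plasma cells 8 were led by Ighg1, 3 by Ighm and none by another of the genes counted, while 8 had no leader. The single Igha cell held 2553 of the 2565 Igha UMIs.

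Ighg1 molecules were also found outside plasma cells in every class, and at different levels in the 2 tumours. Outside plasma cells, 8 EM1 cells and 1 EM2 cell with at least 100 heavy-chain UMIs were set aside over 13 classes. In the rest, an Ighg1 UMI occurred in 27.8% to 35.1% of cells of each class in EM1 and in 1.14% to 5.22% in EM2. The level ran from 58.1 to 486 CPM over the classes in EM1, with a median of 318 CPM, and from 2.65 to 309 CPM in EM2, with a median of 25.8 CPM. Cd44-MHCIIhi B cells, which belong to the lineage that makes antibody, were highest in both. Tumour cells of the total libraries, which make no antibody, had an Ighg1 UMI in 16.8% of EM1 and 2.18% of EM2 cells. The shares of the 13 classes did not overlap between the libraries, while the levels did. Immunoglobulin genes are among the genes past 2-fold in most classes, and except for B cells they are left out of the accounts of single classes below.

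**Figure D2:**
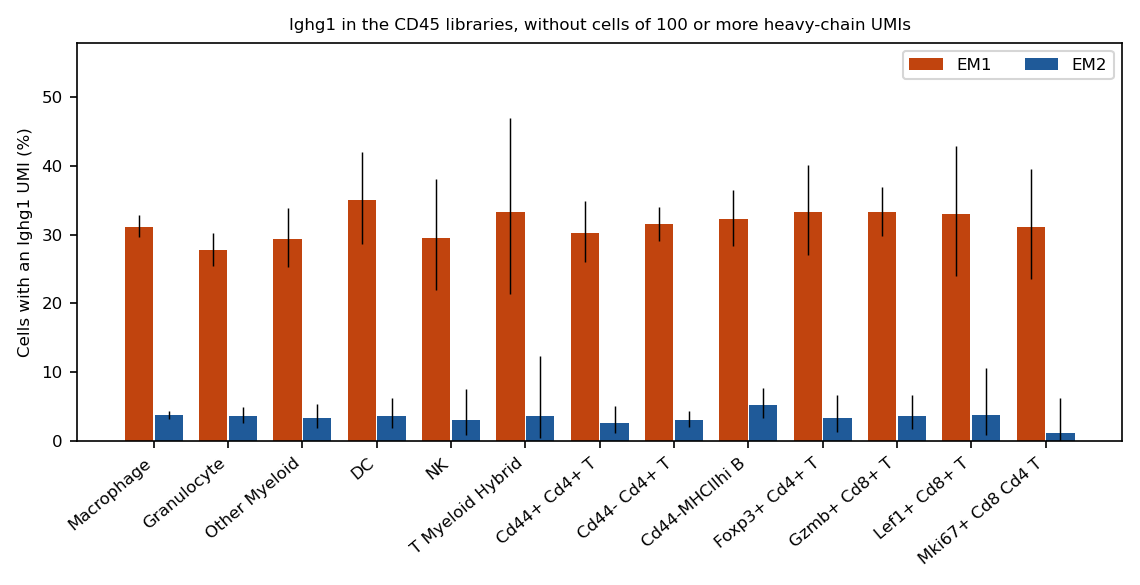
Percent of cells with at least 1 Ighg1 UMI in 13 classes of the EM1 and EM2 CD45 libraries, without cells that hold 100 or more heavy-chain UMIs; bars are exact 95% intervals. All EM1 classes lie between 27.8% and 35.1% and all EM2 classes between 1.14% and 5.22%.

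Summed over the B class, 201 of 4849 genes passed 2-fold (4.15%), 115 higher in EM1 (2.37%) and 86 in EM2 (1.77%), in a class whose plasma cell share differed. The balance was the other way in B cells of the total libraries, with 64 of 5044 measured genes higher in EM1 and 203 in EM2. The Cd44-MHCIIhi B cells, the main B subtype with 522 and 441 cells, allow a closer comparison, and there 54 of 5184 genes passed (1.04%), 25 higher in EM1 (0.482%) and 29 in EM2 (0.559%). Without each gene's 2 highest cells the counts were 32 higher in EM1 and 25 in EM2, a recount that leans to the side with more cells. Ighg1 was at 2296 CPM in EM1 and 309 CPM in EM2, but 2 EM1 cells held 964 of its 1221 UMIs, and without them the levels were 486 and 309 CPM. Without the 2 highest cells of each library they were 486 and 193 CPM (log2 1.29). Ighg3 was at 128 against 18.99 CPM (log2 2.25, and 2.29 without the 2 highest cells). Ighm, the class these cells make, was at 5565 against 3222 CPM (log2 0.79). None of 11 MHC class II presentation genes passed 2-fold, with a median log2 of 0.011. Hepacam2, at 24.5 against 92.6 CPM, and Thbs1, at 113 against 313 CPM, were higher in EM2, and Thbs1 is again a gene of the macrophages.

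Granulocytes of EM1 carried more interferon-gamma induced transcripts, and 3 genes of granule proteins, Camp, Ltf and Ngp, were higher in EM2. Of 2615 measured genes 25 passed 2-fold (0.956%), 14 of them higher in EM1 (0.535%) and 11 in EM2 (0.421%), and 24 of the 25 did so without the 2 highest cells. Of 24 genes of the interferon-gamma induced list 12 were measured. All 12 leaned to EM1, 5 by 2-fold or more, with a median log2 of 0.86 against 0.049 over all genes measured in granulocytes.

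Gbp2, a guanylate-binding protein that acts on membranes of intracellular pathogens, was at 703 (659 to 749) CPM in EM1 and 212 (185 to 243) CPM in EM2 (log2 1.68). Its UMIs came from 456 of 1401 and 125 of 1066 cells. The other 4 CD45 libraries, taken as captured apart, had 92.4 to 305 CPM, so EM1 was the highest of the 6. Gbp2b, a related gene, was at 561 CPM in EM1 and 224 CPM in EM2 (log2 1.29). The immunity-related GTPases Irgm1 and Irgm2 were at 173 against 77.7 CPM and 51.03 against 18.9 CPM. Tap1, which moves peptides to MHC class I, was at 269 CPM in EM1 and 126 CPM in EM2 (log2 1.04). Short of 2-fold were Nlrc5, the activator of MHC class I genes, at 169 against 85.7 CPM, Cd274, the gene of PD-L1, at 595 against 335 CPM, and Socs1 at 59.2 against 43.9 CPM.

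Granulocytes of the total tumour libraries gave the same direction. There, 12 genes of the list were measured, which include Cxcl10 in place of Irgm2. Of these, 8 passed 2-fold toward EM1 and all 12 leaned that way, with a median log2 of 1.10. Over all 3394 genes measured there, 85 passed 2-fold, 43 toward EM1 and 42 toward EM2. Gbp2 was at 633 CPM in EM1 and 217 CPM in EM2 granulocytes of those libraries. Genes of the type I interferon list differed less, with 1 of 15 past 2-fold and a median log2 of 0.20. That gene was Zbp1, a sensor of nucleic acids, at 184 against 86.7 CPM. Whether the 2 interferon lists differ was not tested. All 9 measured MHC class I presentation genes leaned to EM1, with a median log2 of 0.67, and MHC class II genes were level at -0.027.

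Interferon response genes carry short DNA motifs upstream of their start, and the promoters of those 3 of the 5 genes past 2-fold that held a match are shown for their layout. Tap1 held none. Each is the 250 bases before the gene's start from RefSeq on GRCm38.p6, 5′ to 3′ on the gene's strand, with motif matches in capitals. The gamma-activated site was searched as TTCNNNGAA, which reads the same on both strands, and the interferon-stimulated response element as GAAA, any 2 bases and GAAA, on both strands.
Gbp2 (chr3:142620413-142620662, + strand): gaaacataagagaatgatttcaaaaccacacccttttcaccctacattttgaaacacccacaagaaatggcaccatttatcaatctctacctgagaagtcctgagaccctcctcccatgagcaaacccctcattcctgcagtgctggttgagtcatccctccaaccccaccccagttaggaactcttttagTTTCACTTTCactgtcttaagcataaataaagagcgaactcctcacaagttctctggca
Irgm2 (chr11:58214727-58214976, + strand): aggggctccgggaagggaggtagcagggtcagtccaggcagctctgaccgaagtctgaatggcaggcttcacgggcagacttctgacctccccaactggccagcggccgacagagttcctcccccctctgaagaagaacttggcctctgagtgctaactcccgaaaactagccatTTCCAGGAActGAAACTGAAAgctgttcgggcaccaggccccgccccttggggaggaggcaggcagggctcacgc
Irgm1 (chr11:48871421-48871670, − strand): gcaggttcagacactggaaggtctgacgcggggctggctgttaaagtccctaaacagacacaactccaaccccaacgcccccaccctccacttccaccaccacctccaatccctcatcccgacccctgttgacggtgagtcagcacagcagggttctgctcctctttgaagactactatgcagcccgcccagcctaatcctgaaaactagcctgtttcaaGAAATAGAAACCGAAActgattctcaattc
Gbp2 has 1 response element on the opposite strand, Irgm2 has 1 gamma-activated site and 1 response element, and Irgm1 has 2 response elements that overlap. Of 12 measured list genes 10 had a promoter in the table: 4 held the gamma-activated site, 6 the response element and 7 either. Over 32851 mouse promoters of this length the shares were 7.02%, 2.98% and 9.66%. A match describes the letters and does not show binding.

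Of 22 granulocyte state genes measured 17 leaned to EM2, with a median log2 of -0.15, and 3 passed 2-fold, all toward EM2. In the total libraries the median was -0.054, and 10 of the 22 leaned to EM1. Camp, the gene of the cathelicidin antimicrobial peptide, was at 327 (297 to 359) CPM in EM1 and 1259.9 (1191 to 1331) CPM in EM2 (log2 -1.91). Ltf, which encodes lactoferrin, was at 896 CPM in EM1 and 2399 CPM in EM2 (log2 -1.41), and Ngp, a neutrophil granule protein, at 2996 CPM in EM1 and 6657 CPM in EM2 (log2 -1.15). These came from few cells, with Camp in 46 and 62, Ltf in 78 and 77 and Ngp in 169 and 154 cells. They were the 3 past 2-fold. S100a8, an abundant calcium-binding protein of neutrophils, was level at 77256 against 84756 CPM (log2 -0.13). In the total tumour libraries these 3 kept their direction, with Camp at 950.3 and 2805 CPM, Ltf at 2143 and 3997 CPM and Ngp at 4874 and 10222 CPM. Chil3, a chitinase-like protein, was at 30.3 against 132 CPM. The neutrophil attractant Cxcl1 was at 58.4 against 136 CPM. Of 15 glycolysis and hypoxia genes 14 leaned to EM1, with a median log2 of 0.42 and none past 2-fold.

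**Figure D3:**
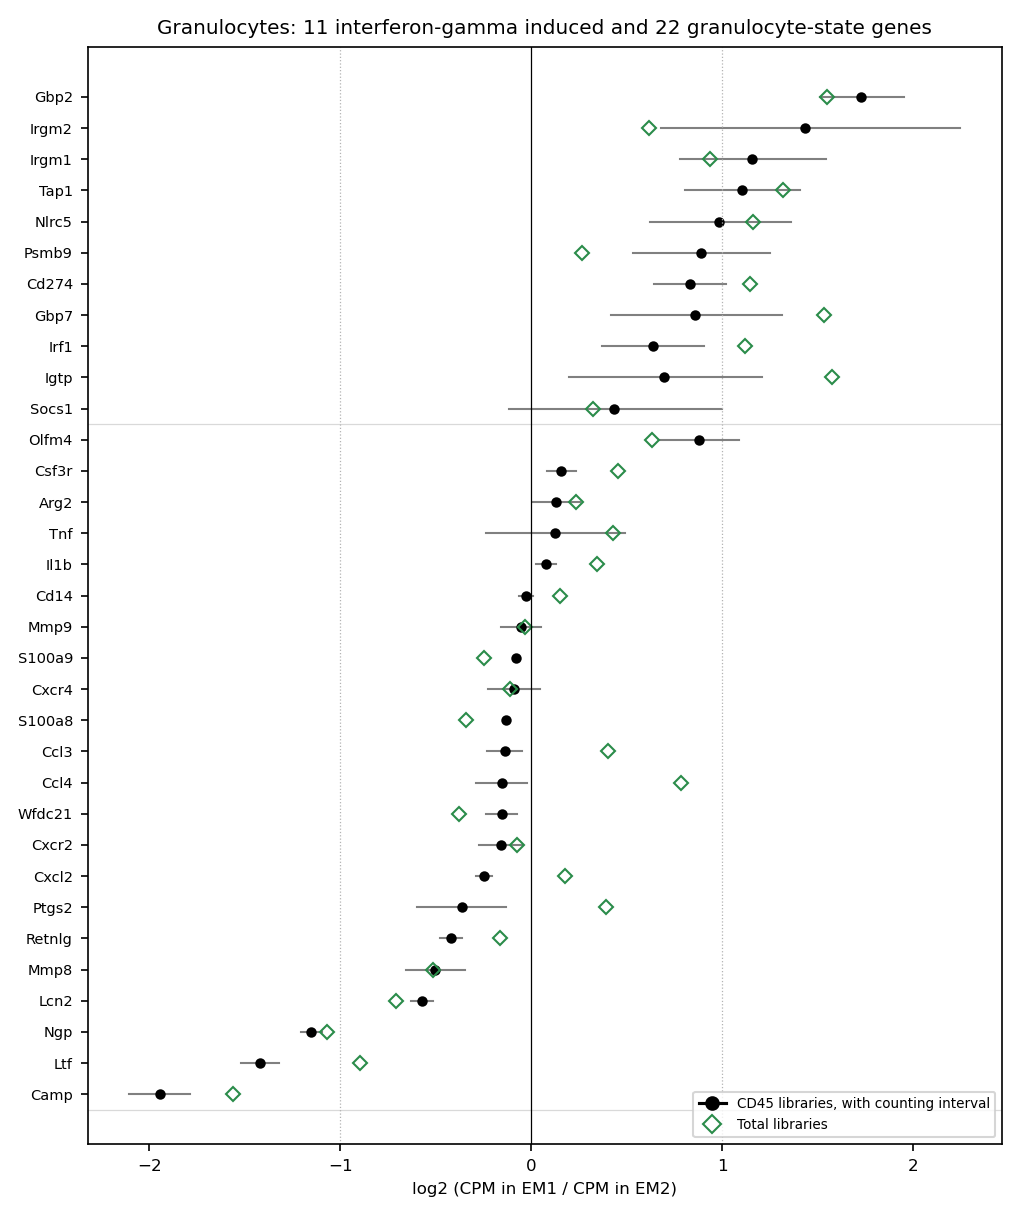
Log2 ratio of CPM, EM1 over EM2 and without a pseudocount, in granulocytes for 11 of the 12 interferon-gamma induced genes and 22 granulocyte state genes; dots with exact 95% counting intervals are the CD45 libraries, open diamonds the libraries of total tumour cells, and dotted lines mark 2-fold. All 11 interferon-gamma induced genes plotted lie on the EM1 side in both libraries, and Camp, Ltf and Ngp on the EM2 side.

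Macrophages, the largest class, had 19 of 3877 genes past 2-fold (0.49%), 8 higher in EM1 (0.206%) and 11 in EM2 (0.284%). All 19 did so without the 2 highest cells. Adamdec1, a secreted metalloprotease of tissue macrophages, was at 142 (137 to 148) CPM in EM1 and 28.4 (26.3 to 30.6) CPM in EM2 (log2 1.99), and at 151 and 24.4 CPM in the total tumour libraries. Ccl24, an eotaxin that draws eosinophils, was at 594 (583 to 605) CPM in EM1 and 202 (196 to 207) CPM in EM2 (log2 1.51). The other 4 CD45 libraries had 27.2 to 131 CPM of Adamdec1 and 260.5 to 634 CPM of Ccl24, so EM2 was below all of them for Ccl24 and EM1 above all of them for Adamdec1. Cd36, a scavenger receptor for lipids, was at 203 CPM in EM1 and 80.8 CPM in EM2 (log2 1.23). Pdcd1lg2, the gene of the PD-1 ligand PD-L2, was at 85.3 CPM in EM1 and 37.01 CPM in EM2 (log2 1.02). The immediate response factors Klf2 and Nr4a1 were at 215 against 95.5 CPM and 226 against 103 CPM.

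All 7 monocyte genes measured in macrophages leaned to EM2, and 1 of them, Ly6c2, passed 2-fold. Ly6c2, a surface antigen of fresh inflammatory monocytes, was at 28.2 (25.8 to 30.7) CPM in EM1 and 72.7 (69.4 to 76.2) CPM in EM2 (log2 -1.11), and its near copy Ly6c1 at 23.8 against 62.4 CPM, a pair whose reads may be shared. The list has 9 genes, and the median log2 of the 7 measured was -0.73. Among them, F13a1, a coagulation factor subunit, was at 169 against 325 CPM, Fn1, fibronectin, at 2945 against 4827 CPM and Ccr2, the monocyte chemokine receptor, at 101 against 110.3 CPM. The total tumour libraries measured 5 genes of this list, with a median log2 of -0.58 and 1 of the 5 on the EM1 side. F10, the gene of coagulation factor X, was at 96.6 CPM in EM1 and 219 CPM in EM2 and Thbd, the thrombin receptor thrombomodulin, at 219 CPM in EM1 and 482 CPM in EM2.

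Spp1, which encodes the matrix protein osteopontin, was at 799.8 (787 to 813) CPM in EM1 and 1644 (1628 to 1660.0) CPM in EM2 (log2 -1.03), and at 1035 and 1924 CPM in the total libraries. Slpi, a protease inhibitor, was at 329 CPM in EM1 and 672 CPM in EM2. Thbs1, thrombospondin 1, was just short of 2-fold at 2478 against 4688 CPM (log2 -0.92). The Arg1-side list as a whole had 2 of 12 measured genes past 2-fold and 10 leaning to EM2, with a median log2 of -0.47. Arg1 itself, which breaks down arginine, differed little, at 1299.9 against 1588 CPM (log2 -0.29). The C1q-side list of resident macrophages was level, with none of 14 past 2-fold, a median log2 of 0.032, and C1qa at 6493 against 6058 CPM.

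The interferon-gamma induced genes that differed in granulocytes did so less in macrophages. None of 16 measured passed 2-fold, 14 leaned to EM1, and the median log2 was 0.24. Gbp2 was at 126 against 129 CPM and Cxcl9, which attracts T cells, at 543 against 485 CPM. Cxcl10, a related chemokine, came nearest to 2-fold at 64.1 against 28.3 CPM (log2 0.95). Whether the 2 classes differ in this response was not tested.

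**Figure D4:**
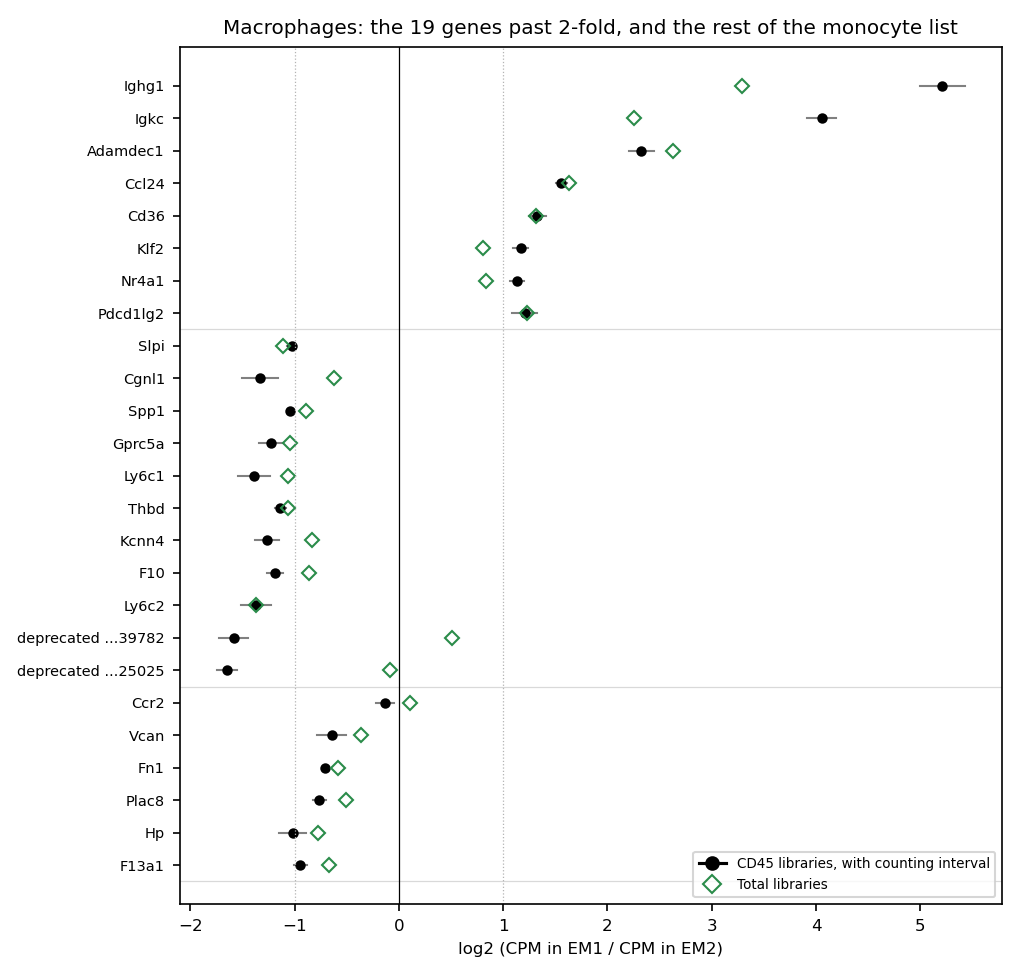
CPM ratio on a log2 scale, EM1 over EM2 and without a pseudocount, in macrophages for the 19 genes past 2-fold and the other 6 measured monocyte genes; dots with exact 95% counting intervals are the CD45 libraries and open diamonds the libraries of total tumour cells. Adamdec1 and Ccl24 lie furthest on the EM1 side after the immunoglobulin genes, and all 7 monocyte genes lie on the EM2 side in the CD45 libraries.

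In Other Myeloid cells, as in macrophages, Adamdec1 and Ccl24 were higher in EM1. Of 4534 genes 33 passed 2-fold (0.728%), 12 higher in EM1 (0.265%) and 21 in EM2 (0.463%). Adamdec1 was at 139 (125 to 153) CPM in EM1 and 20.99 (16.6 to 26.2) CPM in EM2, with UMIs in 116 and 31 cells. Mgl2, a lectin of alternatively activated myeloid cells, was at 283 against 78.3 CPM and Ccl24 at 300.4 against 119 CPM. Higher in EM2 was Ctsk, the collagen-degrading cathepsin K of osteoclasts, at 404 (381 to 429) CPM in EM1 and 1461 (1422 to 1500.0) CPM in EM2 from 13 and 39 cells, with 3801 CPM in the parental tumour. Mmp9, a gelatinase, was at 248 against 658 CPM, Atp6v0d2, a proton pump subunit of osteoclasts, at 17.1 against 62.2 CPM, and S100a4 at 234 against 883 CPM. All 16 measured interferon-gamma induced genes leaned to EM1, with a median log2 of 0.44 and none past 2-fold. Ngp in this class came from 1 cell, which held 284 of 318 EM2 UMIs.

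Dendritic cells numbered 205 and 332, and 57 of 4242 genes passed 2-fold (1.34%), 38 higher in EM1 (0.896%) and 19 in EM2 (0.448%). Without the 2 highest cells 45 of them did so. In the total libraries the balance was the other way, with 49 of 4276 measured genes higher in EM1 and 161 in EM2. Vcam1, an adhesion molecule, was at 232 (203 to 263) CPM in EM1 and 72.9 (59.5 to 88.4) CPM in EM2 (log2 1.55), but at 18.3 and 37.4 CPM, in the other direction, in the total libraries. Cyp26b1, which degrades retinoic acid, was at 215 against 46.7 CPM from 27 and 12 cells, and at 439.9 and 41.7 CPM in the total libraries. Higher in EM2 were Ifitm1, an interferon-induced membrane protein, at 560.4 against 1435 CPM, and Tnfsf4, the gene of the OX40 ligand, at 15.5 against 63.7 CPM. The genes that define dendritic cell states did not differ by 2-fold (0 of 18), with Ccr7 at 2211 against 2957 CPM and Clec9a, a receptor of cross-presenting cells, at 172 against 167 CPM.

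Macrophage genes lay beside the EM1 dendritic cells. Ccl24 was at 364 against 45.3 CPM, against 0 and 22.99 CPM in the total libraries. In the CD45 libraries 12 of 13 C1q-side genes leaned to EM1 with a median log2 of 0.61, and the 8 macrophage markers summed to 7585 CPM in EM1 and 4137 CPM in EM2. In the total libraries, with 55 and 170 dendritic cells, the C1q-side median was -1.73 over 8 genes. The part of macrophages within the class was not tested.

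NK cells were 132 in each library, and 77 of 2662 genes passed 2-fold (2.89%), 41 higher in EM1 (1.54%) and 36 in EM2 (1.35%). Ccl4, a chemokine released on activation, was at 877 (735 to 1038) CPM in EM1 and 268 (192 to 363) CPM in EM2, from 31 and 15 cells. Pdcd1 was at 188 against 52.3 CPM, from 13 and 3 cells, and Klf4 at 338 against 118 CPM. Ifng and Gzmc rested on 1 EM1 cell each, with 81 of 86 and 126 of 169 UMIs. Lef1 was higher in EM2 at 51.9 against 169.8 CPM. None of 7 measured NK receptor genes passed 2-fold.

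In the T/Myeloid Hybrid class 153 of 2732 genes passed 2-fold (5.6%), 91 higher in EM1 (3.33%) and 62 in EM2 (2.27%), over only 57 and 56 cells. The doublet call had removed 114 of 171 EM1 and 94 of 150 EM2 cells of this class. Mast cell genes lay in the rest: Cpa3, mast cell carboxypeptidase, had no UMI in EM1 and 145 UMIs in 6 EM2 cells, and Mcpt4, a mast cell protease, was at 324 against 2522 CPM. Its values describe a mixture of few cells.

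Some features differed across most classes at once. A feature that the table marks as deprecated, for the transcription factor gene Mxi1, was at least 2-fold higher in EM2 in 11 of 11 classes that measured it. In macrophages it was at 60.5 against 189.6 CPM in the CD45 libraries and at 159 and 169 CPM in the total libraries of the same tumours. The deprecated feature for Hdc, the enzyme that makes histamine, was at 155 against 883 CPM in granulocytes, and at 809 and 658 CPM in the total libraries. These 2 features therefore differed between the CD45 libraries and not, or in the other direction, between the total libraries. Mitochondrial genes leaned to EM2 in every class compared in the CD45 libraries: their share of UMIs was 0.379% in EM1 and 0.549% in EM2 macrophages, and 0.132% and 0.232% in granulocytes. In the total libraries it was 0.624% and 0.619% in macrophages, 0.391% and 0.453% in granulocytes, 0.790% and 0.942% in T and NK cells, 0.624% and 0.918% in B cells and 0.4999% and 0.656% in dendritic cells. There too it was thus higher in EM2 in 4 of these 5 classes. Of the genes past 2-fold in the CD45 libraries, without deprecated features, those also measured in the total libraries had the same direction there for 14 of 14 genes in macrophages and 18 of 19 in granulocytes. The same held for 15 of 18 in T cells, 159 of 168 in B cells and 14 of 21 in dendritic cells. Fewer were past 2-fold there in the same direction: 6 in macrophages, 11 in granulocytes, 5 in T cells, 59 in B cells and 5 in dendritic cells.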

How the data were processed

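Droplet single-cell RNA libraries from 1 tumour per clone were analysed from deposited tables of UMI counts per gene and cell, filtered by the authors. The submitters' processing notes name Cell Ranger and mm10, with no version. The labels name both a fixed-RNA preparation kit and a 3′ reagent kit, so the chemistry is not settled here. Cell classes are the authors' deposited annotation, and the deposited mitochondrial percent was recomputed from the counts. Doublets were called by simulating 2 pairs per cell over 2000 variable genes, with 1 limit for all libraries; 203 EM1 and 202 EM2 cells (2.14% and 2.21%) were left out.

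UMIs were summed per class (at least 50 cells a side) and given as CPM, with log2 of the ratio of CPM + 10 (Python 3.11.15, numpy 2.4.6, pandas 2.3.3, scipy 1.17.1). edgeR 4.0.16 gave TMM scaling as an alternative, and no test was run between the 2 tumours. The scripts were tested on simulated data. Named genes are the 6 with the highest and the 6 with the lowest ratio per class, from which the text selects, list members past 2-fold, members shown to be short of it, and genes past 2-fold in most classes; Gbp2b and the cells split by Trbv14 were chosen after their values were seen. The members and gene lists were chosen with earlier results of these data known. The values of 1 list member are not reported here.

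Alternatives were all deposited cells, cells with at least 500 genes, no shared barcodes, other pseudocounts, no CPM minimum, other scalings, a mean over cells and the libraries of total tumour cells. Leaving out each gene's 2 highest cells, and the settings for Trbv14, were added after seeing the data. The series text calls the second library of each tumour total tumour cells, while the protocol also names a CD45- fraction.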

Additional observations from a re-analysis of the deposited data

How the results depend on the processing

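No paired analysis was possible because each clone is 1 tumour, and the labels carry no replicate numbers. Of 64 recomputed class shares 55 stayed within their counting interval and 137 of 138 list medians stayed within 0.25 of the reported log2 value. A median near 0 can change sign within that limit, as that of the C1q-side list in macrophages did, from 0.032 to -0.14 in the total libraries. Of the recomputed values of single genes 414 stayed within their counting interval, 143 moved beyond it and 9 changed direction. That interval is of the CPM ratio without a pseudocount, while the values carry one, so a value can lie outside it through the pseudocount alone. With a pseudocount of 1 CPM 54 values stayed within it, and with 50 CPM 23 stayed and 31 moved. Of the recomputed counts of genes past 2-fold 115 stayed within 1.5 times the count reported and 29 did not. Among the shares that moved, in percentage points of EM1 minus EM2, were those in the libraries of total tumour cells. There macrophages were at -21.2, T and NK cells together at 17.8, granulocytes at 4.46 and B cells at 0.279. Over the classes of matching names in the CD45 libraries, with Other Myeloid and hybrid cells left out, these were at -16.4, 12.6, 3.25 and 2.15. Which class such cells took in the total libraries was not tested, so the 2 sets of classes may differ. Over cells other than granulocytes, T cells were at 15.1, Cd44- Cd4+ T cells at 7.19 and Gzmb+ Cd8+ T cells at 5.51, and with at least 500 genes per cell T cells were at 14.0 and Gzmb+ Cd8+ T cells at 5.27.

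With a pseudocount of 50 CPM the counts of genes past 2-fold were 5 in macrophages, 10 in granulocytes, 76 in B cells, 15 in Other Myeloid cells, 19 in dendritic cells, 20 in NK cells, 68 in the hybrid class, 22 in Cd44+ and 4 in Cd44- Cd4+ T cells, 7 in Cd44-MHCIIhi B cells, 17 in Foxp3+, 19 in Gzmb+, 30 in Lef1+ and 27 in Mki67+ T cells. With 1 CPM they were 159 in Cd44+ and 29 in Cd44- Cd4+ T cells, 100 in Cd44-MHCIIhi B cells, 134 in Gzmb+ and 152 in Mki67+ T cells. With no CPM minimum they were 55 in Other Myeloid cells, 91 in dendritic cells, 31 in Cd44- Cd4+ and 119 in Gzmb+ T cells. A mean over cells gave 75 in B cells and 129 in Foxp3+ T cells, at least 500 genes per cell gave 44 in granulocytes, and all deposited cells gave 67 in the hybrid class. The total libraries gave 85 in granulocytes and 210 in dendritic cells. T cells as a whole, not among the counts above, had 40 there against 20.

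The Trbv14 difference of 68.9 points in Gzmb+ Cd8+ cells was 51.9 points as a share of cells led by the gene and 41.4 points in T and NK cells of the total libraries. Directions reversed, on the log2 scale, for the C1q-side list in dendritic cells (-1.73), and for Ccl24 (-1.72), Vcam1 (-0.74) and Ighm (1.30) in dendritic cells and the Hdc feature in granulocytes (0.29), all in the total libraries. Ighm in B cells reversed with a mean over cells (0.12). Without the 2 highest cells Ifng (-0.54) and Gzmc (-0.38) in NK cells and Ccl3 (-0.44) and Ccl4 (-0.046) in Cd44+ Cd4+ T cells reversed, since few cells held their UMIs. The cause of the other changes was not tested. Classes with few cells, such as Lef1+ T cells, NK cells and the hybrid class, have the widest counting intervals.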

Other observations

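The libraries of total tumour cells also held cells outside the immune system, which differed between the 2 tumours. Tumour cells were 43.3% (42.1 to 44.5) of all cells in EM1 and 33.9% (32.97 to 34.9) in EM2. Fibroblasts, which build the tumour matrix, were 0.785% (0.587 to 1.03) and 2.32% (2.03 to 2.64), and endothelial cells, which line vessels, 0.725% (0.535 to 0.960) and 1.51% (1.28 to 1.77). Both stromal classes were thus a larger share of the EM2 library, as were its macrophages. A magnetic or digestion step can set such shares, and its part was not tested.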
